A study of Mus musculus with 16 samples.

Results

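The genes that cut, protect and cross-link the extracellular matrix were read across tissue and genotype in 16 mouse RNA-seq libraries. The members are the protein-coding genes whose Ensembl identifiers carry, in the GENCODE M21 annotation, a symbol of the matrix metalloproteinases (Mmp), the tissue inhibitors of metalloproteinases (Timp1 to Timp4), the ADAMTS and ADAMTS-like families, or Lox and Loxl1 to Loxl4. They number 55 of 55536 rows of the deposited counts and of 22028 protein-coding rows. There were 22 Mmp, 4 Timp, 19 Adamts, 5 Adamtsl and 5 lysyl oxidase genes, chosen by name and not by any measured value.

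Both tissues, visceral fat and the red, oxidative portion of the gastrocnemius in the calf, were taken from 8 females, 4 labelled Conditional MusMyD88-/- and 4 labelled Cre-Control. MyD88 relays signals from Toll-like and interleukin-1 receptors into the cell, and the labels describe its loss as a muscle knockout set against controls that carry Cre by their label. Cre driver, strain and age are not stated in the labels. All 8 mice, controls included, ran on wheels for 5 weeks and were then held with little room to move for 8 days, so no group stands for sedentary or freely running animals. The knockout mice are numbered 139, 958, 960 and 29 and the control mice 131, 137, 138 and 11, and a muscle and a fat library that share a number were treated as 1 animal. Each group of tissue and genotype thus held 4 libraries.

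Collagens, elastic fibres and proteoglycans are laid down outside the cell and are trimmed there by these enzymes. Matrix metalloproteinases are secreted or membrane-bound zinc proteases made as inactive precursors, and the TIMPs block their active site, with TIMP3 also binding several ADAMTS enzymes. ADAMTS proteases remove the propeptides of fibrillar procollagens or cut proteoglycans such as versican and aggrecan, the ADAMTS-like proteins lack the protease domain and bind microfibrils, and lysyl oxidases join collagen and elastin chains into stable fibres. In fat and muscle much of this set is made by fibroblasts, blood vessel cells and macrophages rather than by the adipocyte or the muscle fibre.

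Library totals ran from 15203806 to 21747345 counts in muscle and from 13242243 to 19114782 counts in fat. Myd88 itself was at 1.66 to 2.13 CPM (counts scaled to library size) in knockout muscle and at 2.11 to 3.43 CPM in control muscle, and its log2 fold change of -0.47 (SE 0.20) did not pass the test (edgeR adjusted p = 0.949), so no called loss of the transcript checks the labels. The labels do not say which part of the gene is deleted, and cells of the muscle without Cre activity would keep it whole. Marker sums are given as CPM of the total counts, without scaling factors. In muscle, 8 genes of the contractile fibre summed to 345700 to 362600 CPM in knockouts and 336700 to 367700 CPM in controls, and the groups overlapped. In fat the same 8 genes summed to 1187 to 17020 CPM in knockouts and 1612 to 8686 CPM in controls. The fat library from control mouse 138 was unlike the other 7. Its 8 adipocyte genes summed to 5645 CPM, against 21180 to 25480 CPM in the other 3 control fat libraries and 21350 to 22990 CPM in knockout fat. All 7 smooth muscle and pericyte markers were detected, and they summed to 20770 CPM there, against at most 1410 CPM in any other fat library. The bladder epithelium gene Upk1a was at 539 CPM in that library and at 0.0669 to 2.40 CPM in the other 7. Genotype results in fat are therefore given with all 8 libraries and again without this one. The tissue difference is given with this library, and without it where stated.

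**Figure D1:**
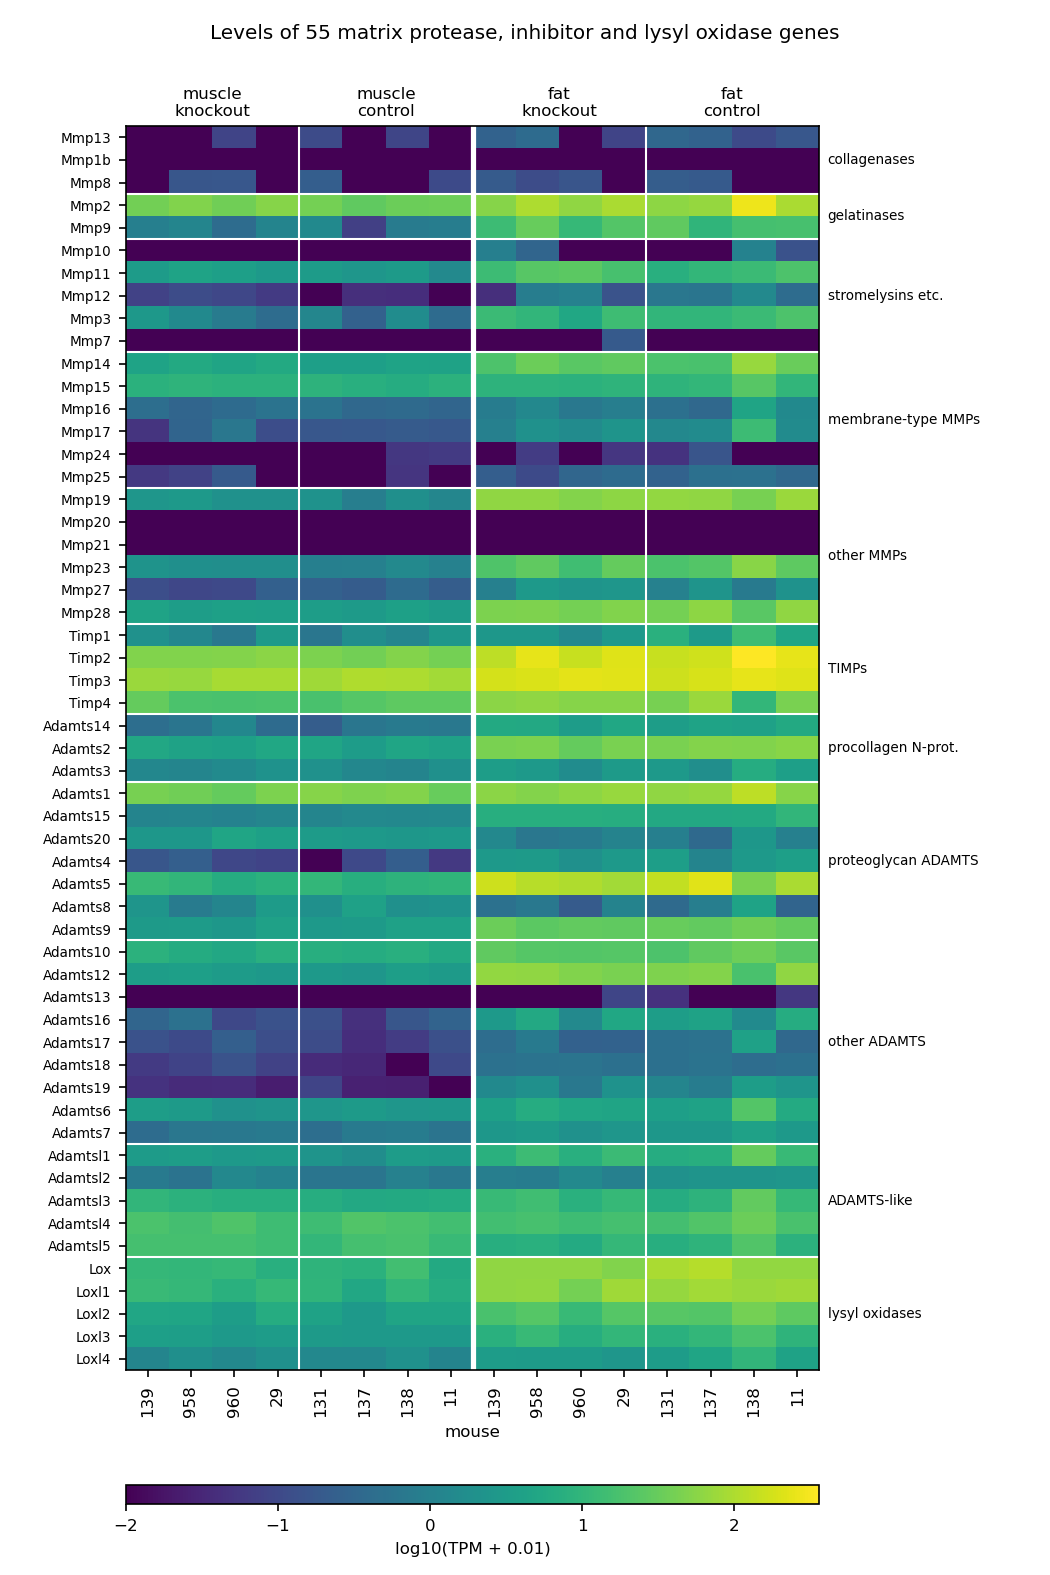
Heat map of the level per length of each of the 55 members (rows, grouped by role) in the 16 libraries (columns, by mouse number), as log10 of TPM plus 0.01. Most rows are brighter in the 8 fat libraries on the right, Timp2 and Timp3 are bright throughout, and the rows at the bottom of the scale include Mmp1b, Mmp20 and Mmp21, which had no count in any library.

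The inhibitors Timp3 and Timp2 had the highest levels of the set in both tissues. Levels of different genes are compared here as TPM, in which counts are divided by exon length. Timp3, the inhibitor that stays bound to the matrix, averaged 87.5 ± 10.9 TPM in muscle and 208 ± 26.7 TPM in fat (SD, n = 8 each) and took 23.2% of the members' summed TPM in muscle and 14.7% in fat. Timp2, which both inhibits and, together with membrane-bound MMP14, activates pro-MMP2, averaged 47.8 ± 6.16 TPM in muscle and 207 ± 76.3 TPM in fat. In fat these 2 inhibitors did not differ beyond their spread. Timp4 averaged 22.3 ± 4.93 TPM in muscle and 50.1 ± 19.1 TPM in fat, and Timp1, the inducible member, came last of the 4 in both tissues at 1.64 ± 0.87 TPM in muscle and 4.85 ± 4.08 TPM in fat. Of the exons of Timp3, 21.3% lie opposite exons of the synapsin gene Syn3, and since the strand setting of the counting is not given, reads of the pair cannot be told apart there.

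Behind Timp3 and Timp2, the order differed between the tissues. In muscle the next members were Adamts1, a versican-cleaving enzyme, at 42.4 ± 8.45 TPM and gelatinase A, Mmp2, at 39.5 ± 8.11 TPM, whose ranges overlapped. Timp4 followed, then the microfibril-binding Adamtsl4 at 17.0 ± 2.71 TPM and Adamtsl5 at 14.9 ± 2.51 TPM. In fat the next were Adamts5, a main aggrecan- and versican-cleaving enzyme, at 121 ± 55.2 TPM, Mmp2 at 102 ± 74.0 TPM, Lox at 72.8 ± 21.4 TPM, Loxl1 at 69.7 ± 13.9 TPM, Adamts1 at 69.3 ± 24.4 TPM and Mmp19 at 60.5 ± 9.80 TPM. These 6 overlapped in their ranges over all 8 fat libraries. Without mouse 138, Adamts5 averaged 132 ± 49.4 TPM (SD, n = 7), and its lowest library, at 83.5 TPM, lay above the highest of Loxl1, Adamts1 and Mmp19. Mmp2 averaged 76.4 ± 19.3 TPM without it, Lox 73.8 ± 22.9 TPM and Timp2 185 ± 47.2 TPM. The members with the highest level per length within the other roles were Mmp11 among the stromelysins, Mmp15 in muscle and Mmp14 in fat among the membrane-type enzymes, Adamts2 among the procollagen N-proteinases, and Adamts10 in muscle and Adamts12 in fat among the remaining ADAMTS genes.

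Summed TPM of the 4 inhibitors was higher than that of the 22 metalloproteinases in every library. The ratio of the sums was 2.28, 1.77, 2.49 and 2.10 in muscle of knockout mice 139, 958, 960 and 29, against 2.20, 3.47, 3.01 and 2.76 in control mice 131, 137, 138 and 11. Knockout mouse 960 lay above control mouse 131, so the groups overlapped, although the other 3 controls lay above all knockouts. In fat the ratio was 1.46, 1.43, 1.78 and 1.49 in the knockouts and 1.38, 1.59, 1.12 and 1.40 in the controls, in the same order of mice, and the lowest value was that of mouse 138. Within every mouse the muscle ratio lay above the fat ratio, with medians of 2.385 in muscle and 1.443 in fat. The ranges met only between different mice. The lowest muscle ratio, 1.774 in mouse 958, lay below the highest fat ratio, 1.775 in mouse 960.

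Of the 55 members, 35 passed the filter on low counts in muscle, 45 in fat and 45 over both tissues together. The 10 that passed in fat and not in muscle were Adamts4, Adamts16, Adamts17, Adamts18, Adamts19, Mmp3, Mmp12, Mmp17, Mmp27 and Timp1. Another 10 passed in neither tissue. Among them, Mmp1b, Mmp20 and Mmp21 had no count in any library, which allows levels of up to 0.138 to 0.197 CPM in muscle and 0.157 to 0.227 CPM in fat, taking 3 counts as the limit. Mmp7 had 1 count over all fat libraries and none in muscle, Adamts13 had 4 in fat and none in muscle, and Mmp10 had 17 in fat and none in muscle. The collagenases, which make the first cut in intact fibrillar collagen, were close to these limits: Mmp13 had 3 counts in muscle and 19 in fat, and the neutrophil collagenase Mmp8 had 7 and 10. Mmp24 had 2 and 6, and Mmp25 had 9 and 63. These limits cover counting error only.

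Several of these rare members share a place in the genome with Mmp3, Mmp12 and Mmp27, which passed the filter in fat. Mmp13, Mmp12, Mmp1b, Mmp3, Mmp10, Mmp8, Mmp27, Mmp20 and Mmp7 lie next to each other on chromosome 9, between 7272514 and 7699585 (GRCm38). Other neighbours among the members were Adamts1 and Adamts5 on chromosome 16, Adamts8 and Adamts15 on chromosome 9, and Adamts13 and Adamtsl2 on chromosome 2. RefSeq promoter windows of 300 bases on GRCm38.p6, from 250 before to 50 after the start, were at hand for 36 of the 55 members. The AP-1 motif, TGAGTCA or its reverse complement TGACTCA, was searched on both strands. It stood in windows of 6 members, Mmp1b, Mmp3, Mmp7, Mmp10, Mmp12 and Mmp13, all in the chromosome 9 group, and each of these windows also held TATAAA. Of 32851 windows of all genes, 5.2% held the AP-1 motif, 13.6% held TATAAA on either strand, and 0.941% held both. TATAAA occurred in windows of 11 members in all, and the GC box GGGCGG, present in 35.7% of all windows, in windows of 23. Of the 6 members with both motifs, Mmp3 and Mmp12 passed the filter in fat and the other 4 in neither tissue. Parts of 5 windows are printed 5′ to 3′ along the gene's strand, from 120 bases before to 10 after the start, because they show a rare chromosome 9 collagenase and a stromelysin beside 3 members that were read at higher levels or turn up in the fat comparison below. Capitals mark AP-1 and TATAAA in Mmp3 (chr9:7445702-7445831, + strand) and Mmp13 (chr9:7272394-7272523, + strand), GC boxes in Mmp14 (chr14:54431478-54431607, + strand) and, on the opposite strand, Timp1 (chrX:20870046-20870175, + strand), and a GC box and TATAAA in Adamtsl2 (chr2:27079259-27079388, + strand).
Mmp3: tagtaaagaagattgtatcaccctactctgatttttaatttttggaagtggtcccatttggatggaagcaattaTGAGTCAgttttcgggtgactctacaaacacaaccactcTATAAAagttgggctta
Mmp13: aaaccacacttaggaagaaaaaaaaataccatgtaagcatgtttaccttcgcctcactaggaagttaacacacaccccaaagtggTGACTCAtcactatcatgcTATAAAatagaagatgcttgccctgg
Mmp14: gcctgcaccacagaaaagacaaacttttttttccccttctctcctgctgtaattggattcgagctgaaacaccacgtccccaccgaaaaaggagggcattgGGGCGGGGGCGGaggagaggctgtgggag
Timp1: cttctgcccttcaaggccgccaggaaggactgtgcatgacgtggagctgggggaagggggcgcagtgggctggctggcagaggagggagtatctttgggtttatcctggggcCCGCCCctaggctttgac
Adamtsl2: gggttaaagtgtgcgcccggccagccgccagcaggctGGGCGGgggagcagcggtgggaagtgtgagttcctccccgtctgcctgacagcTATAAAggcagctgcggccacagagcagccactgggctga
A match describes these letters only.

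Set against fat, muscle held less of most of the set. In the edgeR quasi-likelihood fit of all 16 libraries, 31 of the 45 tested members were lower in muscle at an adjusted p under 0.05, against 44% of all 17084 genes tested, and 5 were higher in muscle, against 35.7% of all genes. The median log2 fold change, muscle over fat, was -1.47 over the members and -0.16 over all genes. Of the 31 lower members, 9 had passed the filter in fat alone and so had to lie lower in muscle. Among the 35 members that passed in both tissues, 22 were lower in muscle, 5 were higher and 8 did not pass the test. Of the 45 members, 27 were lower in muscle than in fat of the same mouse in 8 of 8 mice, against 34.6% of all genes. All muscle libraries lay below all fat libraries for 25 members, against 26.9% of all genes. Members that had passed in fat alone are counted here again. They are Adamts4, Adamts16, Adamts18, Adamts19, Mmp3 and Mmp17 among the 27, and the same without Mmp17 among the 25. The members' median also covers those that passed in fat alone. Tissue scaling matters here, because the fibre genes fill the muscle libraries: with total counts and no scaling factors the median of all genes moved to -1.36 and that of the members to -2.67. Relative to the median of all genes, the members' median was -1.31, and 36 of 45 members lay below the median of all genes. Both values cover all 45 members, including those that passed in fat alone. Total counts gave the same values by construction, since a change of scaling shifts all genes nearly alike. That sameness is therefore no check of the scaling. In these bulk samples, fewer cells of a type and less RNA per cell cannot be told apart. Without the fat library of mouse 138, 38 of 45 members were called in either direction, against 14372 of 17489 genes. Adamts1, Adamtsl3 and Timp4 were gained there and Loxl4 was lost. The fat ranges below include that library. It was the lowest in fat for Mmp19, Adamts5 and Adamts16. It was the highest for Mmp2, Mmp23, Adamts1, Adamts19, Adamts20 and Adamtsl5.

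Mmp19, a metalloproteinase with basement membrane substrates, ranged from 1.19 to 3.60 CPM in muscle (median 2.73) and from 23.5 to 53.6 CPM in fat (median 43.6). No muscle library came near the lowest fat library. The log2 fold change of -4.10 (SE 0.19) passed the test (edgeR adjusted p = 2.15e-11), and 22.3% of its exon bases lie opposite exons of Tmem198b. Mmp23, which lacks the hemopexin domain of most family members, ranged from 0.847 to 1.83 CPM in muscle (median 1.38) and from 7.42 to 20.5 CPM in fat (median 11.2), with a log2 fold change of -3.25 (SE 0.19; edgeR adjusted p = 3.53e-10). Gelatinase B, Mmp9, an enzyme of neutrophils and macrophages, ranged from 0.0847 to 2.03 CPM in muscle (median 1.20) and from 6.91 to 22.8 CPM in fat (median 11.0), with a log2 fold change of -3.56 (SE 0.39; edgeR adjusted p = 5.46e-07). The other gelatinase did not follow. Mmp2 ranged from 35.6 to 68.5 CPM in muscle (median 48.2) and from 37.5 to 147 CPM in fat (median 54.8), was lower in muscle in 4 of 8 mice, and had a log2 fold change of -0.33 (SE 0.22; edgeR adjusted p = 0.184).

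The ADAMTS proteases of the proteoglycan-cleaving kind split between the tissues, with 4 of 7 lower in muscle and 2 higher. Among the lower ones, Adamts4 had passed the filter in fat alone. Adamts5 ranged from 27.9 to 45.6 CPM in muscle (median 38.4) and from 74.7 to 490 CPM in fat (median 241), with a log2 fold change of -2.84 (SE 0.30; edgeR adjusted p = 3.86e-07). Its chromosome 16 neighbour Adamts1 ranged from 62.0 to 110 CPM in muscle (median 87.0) and from 51.3 to 105 CPM in fat (median 72.5), and its log2 fold change of 0.25 (SE 0.14) did not pass the test (edgeR adjusted p = 0.0982). With the mouse as replicate block it did, at 0.26 (edgeR adjusted p = 0.0277), as it did without the fat library of mouse 138, at 0.34 (edgeR adjusted p = 0.0167), while total counts put it lower in muscle, at -0.97 (edgeR adjusted p = 4.22e-05). Adamts4, another aggrecan-cleaving enzyme, was at 0 to 0.415 CPM in muscle and 1.11 to 3.94 CPM in fat (log2 fold change -3.63, SE 0.38). Adamts20, known in mice for the belted coat pattern, was the member with the largest difference in favour of muscle. It ranged from 8.34 to 16.5 CPM in muscle (median 10.1) and from 0.645 to 3.66 CPM in fat (median 1.78), with no overlap, and its log2 fold change was 2.54 (SE 0.28; edgeR adjusted p = 4.52e-07). Adamts8 ranged from 1.31 to 7.03 CPM in muscle (median 3.72) and from 0.195 to 3.13 CPM in fat (median 0.524), where the highest value was that of mouse 138, and its log2 fold change was 2.22 (SE 0.49; edgeR adjusted p = 6.55e-04). Of its exon bases, 10.6% lie opposite another annotated gene.

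Every lysyl oxidase gene was lower in muscle, while of the 5 ADAMTS-like genes 2 were higher, 1 was lower and 2 did not pass the test. Of the 2 that did not pass, Adamtsl3 was called higher in muscle without the fat library of mouse 138. Lox ranged from 11.4 to 26.6 CPM in muscle (median 18.1) and from 48.2 to 109 CPM in fat (median 62.2), with a log2 fold change of -1.96 (SE 0.20; edgeR adjusted p = 2.06e-07), and the fold changes of Loxl1, Loxl2 and Loxl3 were -1.98, -1.40 and -0.75. Loxl4, at -0.45 (SE 0.18; edgeR adjusted p = 0.0303), overlapped between the tissues, and its call was absent in 7 of the 18 settings tried, among them the fit without the fat library of mouse 138, at -0.31 (edgeR adjusted p = 0.0654), and each fit that left out mouse 131, 137, 11, 139 or 960. Adamtsl5, a fibrillin-binding protein, ranged from 19.5 to 31.0 CPM in muscle (median 27.9) and from 6.33 to 15.3 CPM in fat (median 7.79), with no overlap and a log2 fold change of 1.61 (SE 0.16; edgeR adjusted p = 1.17e-07). Adamtsl4, whose human counterpart is mutated in displaced eye lenses, had a log2 fold change of 0.82 (SE 0.10; edgeR adjusted p = 2.66e-06) and Mmp15, a membrane-type enzyme, of 0.56 (SE 0.13; edgeR adjusted p = 8.20e-04). With total counts these 2 turned to -0.40 and -0.67, Adamtsl5 was at 0.38 (edgeR adjusted p = 0.0823) and Adamts8 at 0.96 (edgeR adjusted p = 0.0964), and only Adamts20 was still called higher in muscle, at 1.31. Set against the median of all genes under that scaling, all 5 lay above it, by 0.69 to 2.67 on the log2 scale. This follows from their positive values under TMM, as the change of scaling shifts all genes nearly alike. Among the inhibitors, Timp2 was lower in muscle at -1.14 (SE 0.13; edgeR adjusted p = 1.07e-06) and Timp3 at -0.31 (SE 0.09; edgeR adjusted p = 6.46e-03), while Timp1, at -0.37, and Timp4, at -0.26, did not pass the test. Without mouse 131 the call of Timp3 was lost (-0.23, edgeR adjusted p = 0.0608). Without the fat library of mouse 138 Timp4 was called lower in muscle, at -0.43 (edgeR adjusted p = 0.0102).

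Among called members the largest difference in favour of fat was that of Adamts19, another ADAMTS protease, at 0 to 0.428 CPM in muscle and 1.99 to 7.64 CPM in fat, with a log2 fold change of -5.05 (SE 0.45; edgeR adjusted p = 3.63e-08). Adamts16 followed in its group at -3.40 (SE 0.46), from 0.0847 to 1.24 CPM in muscle and 1.59 to 8.89 CPM in fat. Both had passed the filter through the fat libraries. Markers of cell types differed between the tissues in both directions. With TMM scaling, all 10 fibroblast markers and all 10 macrophage markers were lower in muscle, with median log2 fold changes of -1.19 and -2.34, and none was at 0 in every library. Endothelial markers were split under that scaling, with 3 higher and 4 lower in muscle and a median of -0.05. Smooth muscle and pericyte markers were also split, 3 higher and 4 lower, and all 7 tendon markers were higher in muscle. The fibroblast markers summed to 562.3 to 887.1 CPM in muscle and 2261 to 8824 CPM in fat, and the macrophage markers to 62.2 to 126 CPM in muscle and 605 to 1226 CPM in fat, as CPM of total counts. Their part in the members' tissue difference was not tested.

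**Figure D2:**
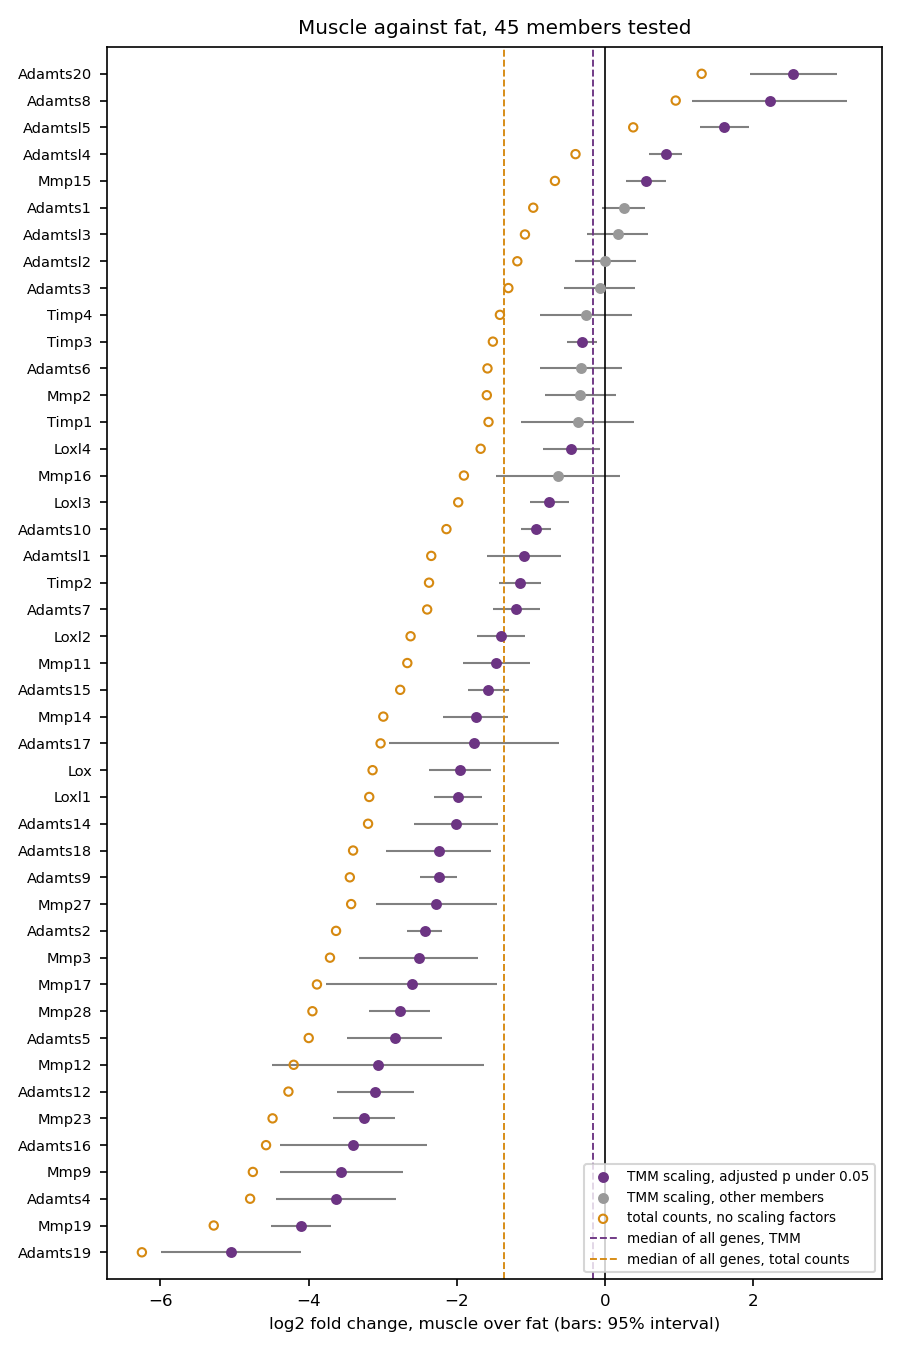
Log2 fold change, muscle over fat, of the 45 tested members with TMM scaling (filled points, bars for the 95% interval of the edgeR fit) and with total counts (open points); dashed lines mark the median of all genes under each scaling. The points run from -5.05 for Adamts19 to 2.54 for Adamts20, and moving to total counts shifts members and the median of all genes to the left together.

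In muscle, the tissue named as the site of the deletion, 23 of the 35 tested members had positive values, and none passed the test between knockout and control. No member was called at an edgeR adjusted p under 0.05 among the 35 tested, while 0.0141% of 14183 genes were. At an unadjusted p under 0.05 there were 5 members, Mmp23, Adamtsl3, Mmp14, Mmp2 and Mmp19, against 5.04% of all genes. DESeq2 called no member and 0.0705% of all genes. The median log2 fold change, knockout over control, was 0.10 over the members and 0.00 over all genes.

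Among the 35 tested members Mmp23 was the 1 whose groups did not overlap, against 3.38% of all genes. Mmp12, which did not pass the filter in muscle, also had all knockouts above all controls, at TPM values close to 0. Mmp23 was at 1.18, 1.06, 1.06 and 1.03 CPM in knockout mice 139, 958, 960 and 29, against 0.561, 0.569, 0.792 and 0.615 CPM in control mice 131, 137, 138 and 11. All 4 knockouts lay above all 4 controls. The values rest on 20 to 23 counts in knockout libraries and 8 to 15 in control libraries. Its log2 fold change was 0.75 (SE 0.25; 95% interval 0.22 to 1.27), the edgeR p was 0.00841 (adjusted p = 0.907), and the exact two-sided permutation p was 0.0286, the smallest that 4 mice against 4 can give.

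The matrix-clearing pair Mmp14 and Mmp2, of which the first is the membrane enzyme that activates the second, were close to each other in size. Mmp14 was at 6.21, 8.71, 6.90 and 8.77 CPM in knockouts, against 5.75, 5.69, 6.54 and 6.65 CPM in controls, in the order of mice given above. Knockout mice 958 and 29 were high and the groups overlapped. Its log2 fold change was 0.32 (SE 0.14; edgeR p = 0.0341, adjusted p = 0.949; exact permutation p = 0.114). Mmp2 was at 31.1, 40.4, 32.0 and 45.3 CPM in knockouts, against 34.6, 23.9, 28.7 and 31.8 CPM in controls, again with knockout mice 958 and 29 highest, and with control mice 131 and 11 within the range of the knockouts. Its log2 fold change was 0.33 (SE 0.14; edgeR p = 0.0361, adjusted p = 0.949; exact permutation p = 0.143). Adamtsl3, an ADAMTS-like protein of unsettled function, averaged 15.6 ± 2.11 CPM in knockouts and 12.4 ± 1.35 CPM in controls (SD, n = 4 each; log2 fold change 0.33, SE 0.11, edgeR adjusted p = 0.907). Mmp19 averaged 2.00 ± 0.27 CPM in knockouts and 1.37 ± 0.49 CPM in controls, with a log2 fold change of 0.55 (SE 0.25; edgeR adjusted p = 0.949).

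By role, the values pointed both ways without a call. Timp2 had a log2 fold change of 0.19 (SE 0.09) and Timp3 of -0.22 (SE 0.11), each with an edgeR adjusted p of 0.949. The 5 lysyl oxidase genes were all positive, between 0.00 for Lox and 0.34 for Loxl1. Of the 6 proteoglycan-cleaving ADAMTS genes tested, 5 were negative, among them Adamts1 at 51.0 ± 8.40 CPM in knockouts and 61.9 ± 11.8 CPM in controls (log2 fold change -0.28, SE 0.15, edgeR adjusted p = 0.949). Of the 25 tested genes of matrix substrates, such as collagens, fibronectin and small proteoglycans, 23 were positive with a median of 0.18 and none called. Col1a1, Col3a1, Dcn and Lum are in this list and also among the fibroblast markers below. Of the 25 tested genes of protease activation and control outside the families, such as the plasmin system and proprotein convertases, 19 were positive with a median of 0.09 and none called. Markers of cell types went both ways. All 6 tested smooth muscle and pericyte markers were negative, with a median of -0.15. Of the 8 skeletal muscle fibre genes 7 were negative, with a median of -0.06 over the 8. Adipocyte and tendon markers were mixed, with 5 of 8 and 4 of 7 positive. All 7 endothelial markers were positive, with a median of 0.046. All 10 fibroblast markers were positive, summing to 672 to 887 CPM in knockouts and 562 to 752 CPM in controls, and all 10 macrophage markers were positive, summing to 96.2 to 126 CPM in knockouts and 62.2 to 97.0 CPM in controls. The 7 neutrophil markers were scarce, with 1 that passed the filter in muscle, yet their sum did not overlap between the groups, at 1.31 to 2.04 CPM in knockouts and 0.569 to 1.11 CPM in controls. Their part in the members' values was not tested.

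**Figure D3:**
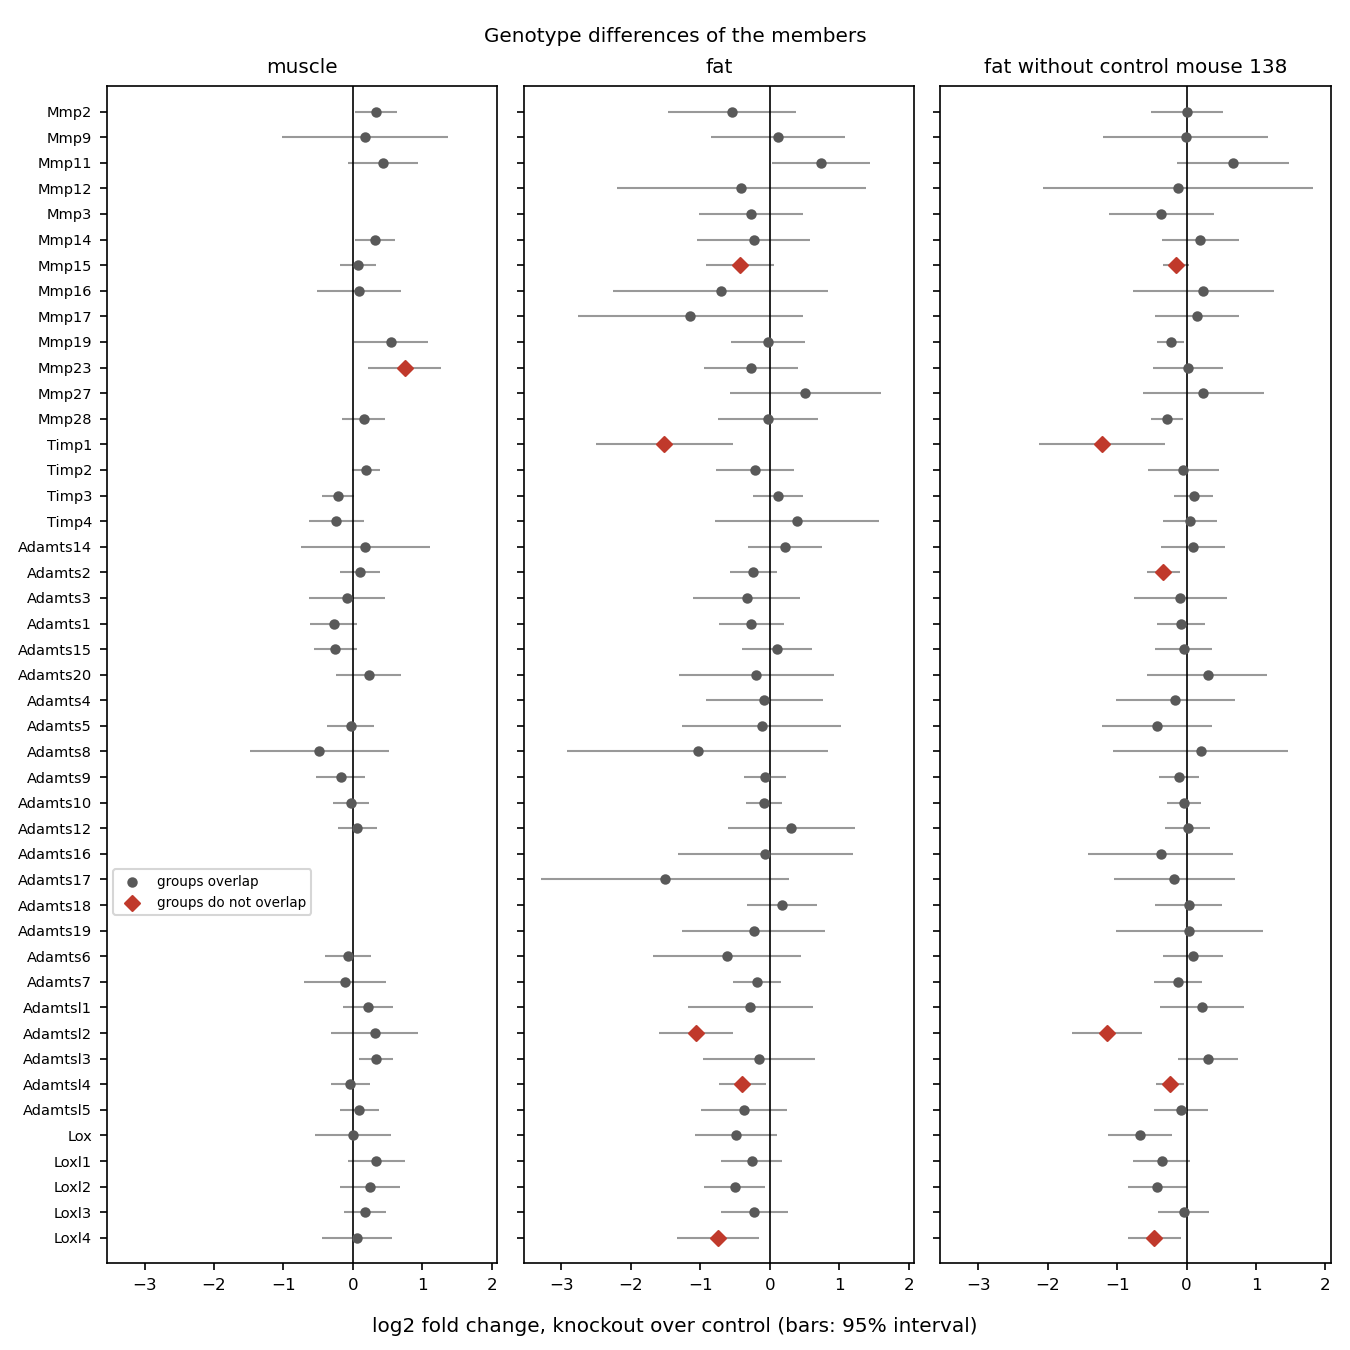
Log2 fold change, knockout over control, of the members in muscle, in all fat libraries and in fat without control mouse 138 (points, with bars for the 95% interval of the edgeR fit; diamonds mark members whose groups did not overlap). In muscle only Mmp23 has a diamond, in fat Adamtsl2, Adamtsl4, Loxl4, Mmp15 and Timp1 have one, and Adamts2 joins them without mouse 138. Blank rows in muscle are members not tested there.

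In visceral fat, 36 of 45 members had negative values, knockout over control, with all libraries and 27 of 45 without mouse 138, and no member was called by edgeR. Among all 8 libraries 0 of 45 members had an adjusted p under 0.05, against 0.00613% of 16323 genes. At an unadjusted p under 0.05 there were 6, Adamtsl2, Timp1, Loxl4, Adamtsl4, Loxl2 and Mmp11, against 7.99% of all genes, and the groups did not overlap for 5 members, against 6.36% of all genes. DESeq2 called 1 member, Adamtsl2, and 0.453% of all genes. The median log2 fold change was -0.23 over the members and -0.01 over all genes. Without mouse 138 the members' median was -0.046, and that of all genes 0.01. There, edgeR again called none of 45 members and 0.0362% of 16579 genes, 8 members had an unadjusted p under 0.05, against 16.6% of all genes, and 6 did not overlap, against 16%. DESeq2 called Adamtsl2 and Lox without that library, and 2.48% of all genes. These fat comparisons share 7 libraries and are not independent.

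Adamtsl2 is an ADAMTS-like protein that binds fibrillin and latent TGF-beta binding protein, and its human counterpart is mutated in geleophysic dysplasia. It was at 2.20, 1.90, 3.65 and 2.41 CPM in fat of knockout mice 139, 958, 960 and 29, against 5.54, 5.503, 4.37 and 5.96 CPM in control mice 131, 137, 138 and 11. All knockouts lay below all controls, and here mouse 138 was the lowest control. These were 26 to 62 counts in knockout libraries and 70 to 94 in control libraries. The log2 fold change was -1.07 (SE 0.23; 95% interval -1.60 to -0.53), the edgeR p was 0.00165 (adjusted p = 0.588). DESeq2 gave it an adjusted p of 0.0148, and the exact two-sided permutation p was 0.0286. Without mouse 138 it was -1.15 (SE 0.22; edgeR adjusted p = 0.140, DESeq2 adjusted p = 3.69e-03). With no filter on low counts and without that mouse, edgeR also called it, at an adjusted p of 0.0201. The gene lies on chromosome 2, 27079379 to 27108981 (GRCm38), and the part of its RefSeq window printed above holds TATAAA and a GC box.

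Timp1, the inhibitor that is induced by inflammation and injury, was at 0.709, 0.658, 0.412 and 0.803 CPM in fat of knockouts 139, 958, 960 and 29, against 2.36, 0.836, 2.94 and 1.27 CPM in controls 131, 137, 138 and 11. The groups did not overlap, though control mouse 137 lay just above the highest knockout. These were 7 to 13 counts in knockout libraries and 12 to 47 in control libraries, and the controls spread over a wider range than the knockouts. The log2 fold change was -1.52 (SE 0.43; edgeR p = 0.00730, adjusted p = 0.588; exact permutation p = 0.0286), and without mouse 138, the highest control, -1.22 (SE 0.40; edgeR adjusted p = 0.216). In muscle Timp1 did not pass the filter on low counts. The more abundant inhibitors Timp2 and Timp3 had log2 fold changes in fat of -0.21 (SE 0.25) and 0.12 (SE 0.16), and of -0.046 (SE 0.22) and 0.10 (SE 0.13) without mouse 138.

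All 5 lysyl oxidase genes had negative values in fat, with and without mouse 138. Loxl4 was at 4.25, 3.80, 4.36 and 3.21 CPM in knockouts, against 4.77, 6.06, 10.1 and 5.36 CPM in controls, in the same order of mice. The groups did not overlap, and the highest control was mouse 138. The log2 fold change was -0.75 (SE 0.26; edgeR adjusted p = 0.591) and, without mouse 138, -0.46 (SE 0.17; edgeR adjusted p = 0.240). Lox, the founding member, was at 92.3, 86.7, 101 and 73.7 CPM in knockouts, against 160, 165, 75.3 and 95.2 CPM in controls. Control mice 131 and 137 were far above all knockouts, while mice 138 and 11 lay among them. Its log2 fold change was -0.49 (SE 0.26; edgeR adjusted p = 0.635) and, without mouse 138, -0.67 (SE 0.20; edgeR adjusted p = 0.198, DESeq2 adjusted p = 0.0311). With mouse 11 left out as well, edgeR called Lox at -0.89 (adjusted p = 0.0385), on 2 control libraries. Loxl2 averaged 31.0 ± 7.36 CPM in knockouts and 43.9 ± 6.72 CPM in controls (SD, n = 4 each; log2 fold change -0.51, SE 0.19, edgeR adjusted p = 0.614), and its log2 fold change was -0.42 without mouse 138. Loxl1 had a log2 fold change of -0.26 and, without mouse 138, of -0.36, and Loxl3 of -0.22 and, without it, of -0.043.

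Adamts2, the main enzyme that removes the N-propeptide of procollagen I, showed how far 1 library could hide or open a gap. It was at 127, 125, 94.8 and 126 CPM in fat of knockouts, against 141, 148, 110 and 158 CPM in controls, in the order of mice used above. With mouse 138 the groups overlapped and the log2 fold change was -0.24 (SE 0.15; edgeR adjusted p = 0.667). Without it all knockouts lay below all controls, at -0.34 (SE 0.11; edgeR adjusted p = 0.207). Adamtsl4 averaged 20.3 ± 1.06 CPM in knockouts and 26.7 ± 5.73 CPM in controls with all libraries, and 23.9 ± 2.26 CPM in the 3 controls without mouse 138 (SD), with log2 fold changes of -0.39 and -0.24. Mmp15 averaged 15.0 ± 0.65 CPM in knockouts and 20.1 ± 7.11 CPM in controls, of which mouse 138 stood at 30.8 CPM and the others at 16 to 17.0 CPM. Mmp28 averaged 54.5 ± 3.65 CPM in knockouts and 66.3 ± 10.0 CPM in the 3 controls without mouse 138 (log2 fold change -0.28, SE 0.10, edgeR adjusted p = 0.241). With mouse 138, which stood below all other fat libraries at 23.0 CPM, the log2 fold change of Mmp28 was -0.024 (edgeR adjusted p = 0.987).

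The exception in sign among the 6 members of smallest p was Mmp11, stromelysin-3, an enzyme made by stromal cells and known to cut collagen VI. It was at 11.6, 18.9, 23.5 and 14.5 CPM in fat of knockouts, against 7.24, 8.71, 8.68 and 16.3 CPM in controls. Control mouse 11 lay among the knockouts and the other 3 controls below them. The log2 fold change was 0.74 (SE 0.31; 95% interval 0.03 to 1.45; edgeR adjusted p = 0.619), and 0.67 (SE 0.34; edgeR adjusted p = 0.372) without mouse 138.

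**Figure D4:**
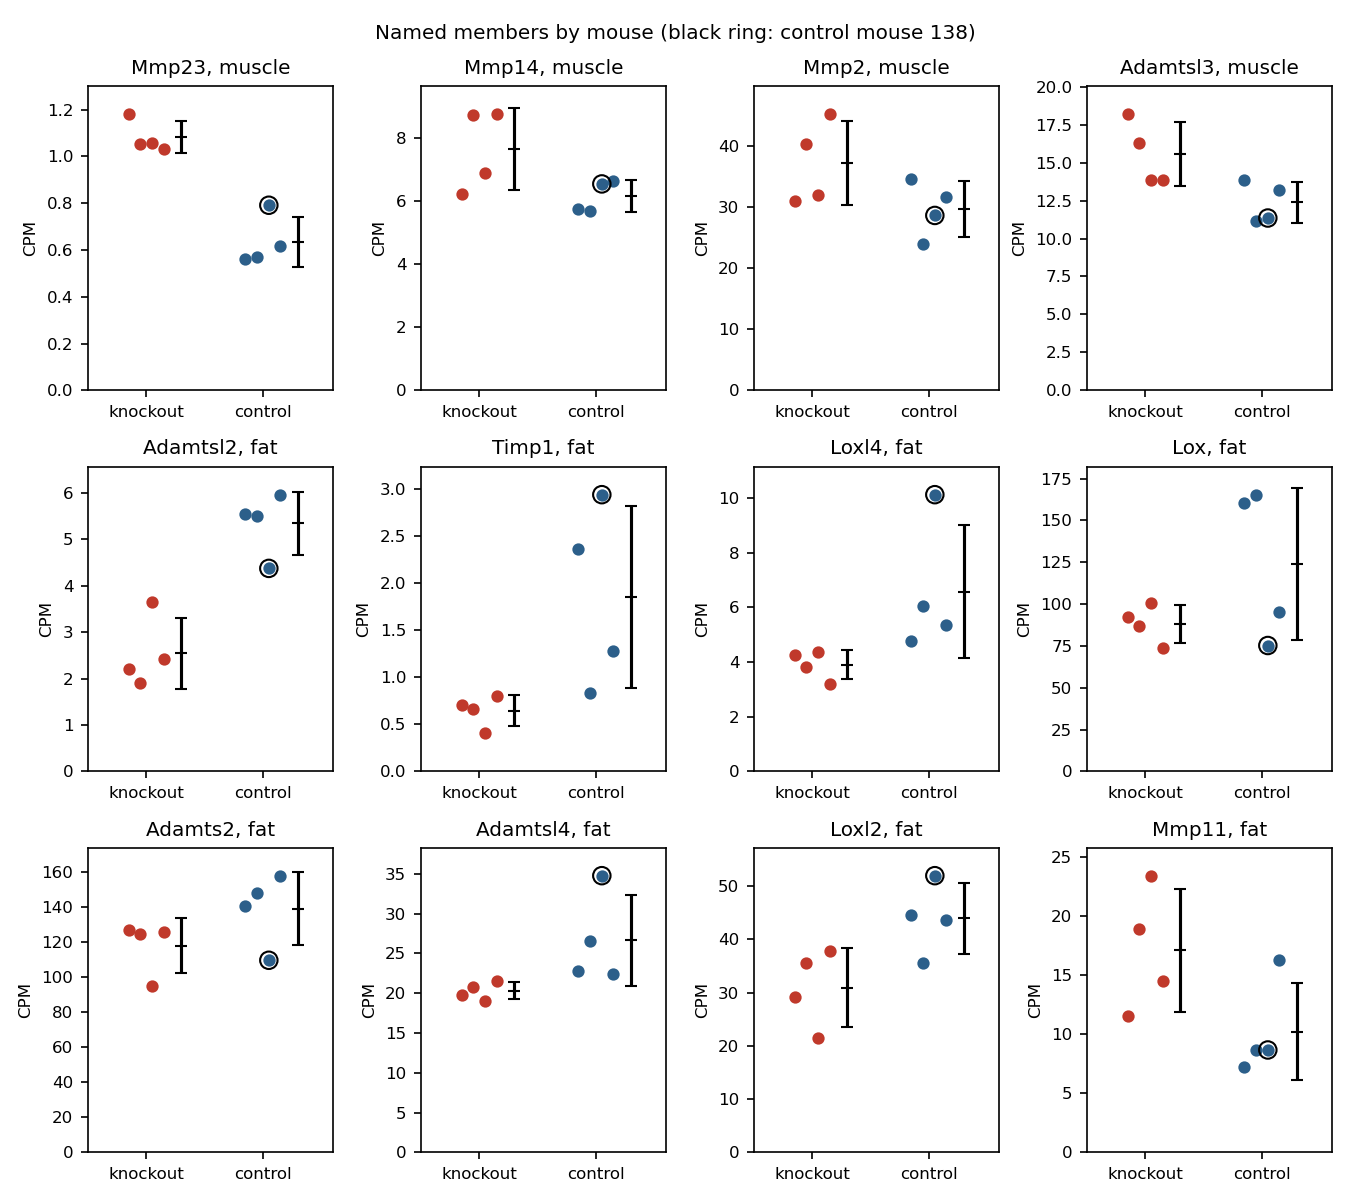
CPM of 12 named members in single mice, knockout at left and control at right in each panel (bars: mean ± SD, n = 4; ring: control mouse 138; each axis starts at 0). Mmp23 in muscle and Adamtsl2, Timp1, Loxl4 and Adamtsl4 in fat show no overlap between the groups, and the ringed mouse is the highest control for Timp1, Loxl4, Adamtsl4 and Loxl2 and the lowest for Adamtsl2, Lox and Adamts2.

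The fat library of mouse 138 moved the set in both directions. Of the 45 members tested in fat, 23 (51.1%) lay above all 7 other fat libraries, against 32.5% of all genes, and 10 (22.2%) lay below them all, against 33% of all genes. Mmp2 was at 226 CPM there, against 56.5 to 98.7 CPM in the other fat libraries, its activator Mmp14 at 101 CPM, against 32.4 to 59.6 CPM, and the membrane-type Mmp17 at 21.2 CPM, against 1.91 to 4.64 CPM. These are 3 of the 23 members above all other fat libraries. Mouse 138 had the highest marker sums in fat for several cell types. Among them were smooth muscle and pericytes at 20770 CPM, fibroblasts at 8824 CPM, bladder epithelium at 2119 CPM and mesothelium at 534 CPM. The part of any of these in the members' values was not tested. Timp4 was at 14.7 CPM, against 79.3 to 134 CPM, Adamts5 at 115 CPM, against 278 to 740 CPM, and Adamts12 at 47.2 CPM, against 149 to 225 CPM. With this library the genotype fold changes of Mmp2 and Mmp17 in fat were -0.54 and -1.14, while without it Mmp2 was at 0.01 (SE 0.22) and Mmp17 at 0.15 (SE 0.27).

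**Figure D5:**
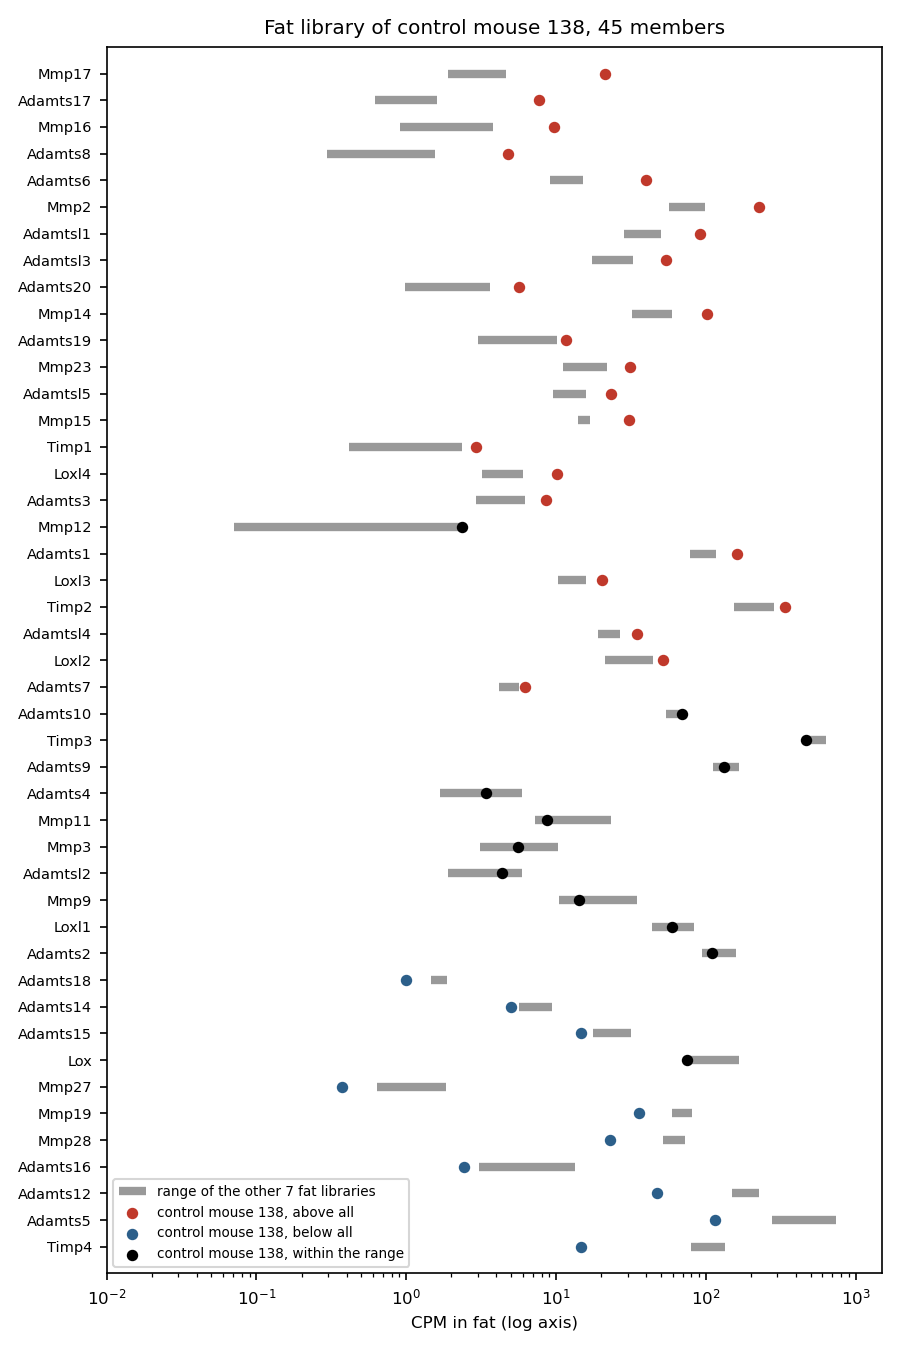
CPM in fat (log axis) of the 45 members tested in fat: grey bars span the other 7 fat libraries, points are control mouse 138. Of the points, 23 lie right of their bar, led by Mmp17, and 10 lie left of it, down to Timp4.

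The matrix substrate genes were also mostly negative in fat, 23 of 25 with a median of -0.46 and 11 at an unadjusted edgeR p under 0.05, and 22 of 25 with a median of -0.41 and 13 at that level without mouse 138. None was called in either. Among them Bgn, the small proteoglycan biglycan, was at -0.66 and, without mouse 138, -0.37, and Col6a1, a collagen VI chain, at -0.52 and -0.59. The substrate list shares Col1a1, Col3a1, Dcn and Lum with the fibroblast markers. The genes of protease activation and control outside the families were split, with 15 of 25 negative and, without mouse 138, 17 of 26 negative, none called. Pcsk5, a proprotein convertase, was at 0.67 (SE 0.14; edgeR adjusted p = 0.588) with all libraries and at 0.62 (SE 0.14; edgeR adjusted p = 0.149) without mouse 138. In fat the summed fibroblast markers were at 2261 to 4319 CPM in knockouts and 3500 to 8824 CPM in controls, with 8 of 10 negative and a median log2 fold change of -0.40. Without mouse 138 the fibroblast sum reached 5030 CPM in controls, with 7 of 10 negative and a median of -0.20. All 10 macrophage markers were negative with and without that library, at 605 to 1190 CPM in knockouts and 800 to 1226 CPM in controls. Endothelial markers went the other way, with 7 of 7 positive and 5 of 7 without mouse 138. Their sums were 885 to 1043 CPM in knockouts and 504 to 877 CPM in controls. These ranges do not overlap, but they are CPM of total counts. The TMM factors in fat were 0.8897 for control mouse 131, at 863 CPM, and 1.021 for knockout mouse 958, at 885 CPM. Dividing by these factors puts that control above that knockout, so the gap does not hold under TMM scaling. The 8 skeletal muscle fibre genes were also all positive, with a median of 0.81 and, without mouse 138, 1.18, on sums that overlapped between the groups. Their part in the members' values was not tested.

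An interaction term over all 16 libraries tested whether the genotype difference in muscle differs from that in fat, given as muscle minus fat. The edgeR fit called no member and 0% of 17084 genes. At an unadjusted p under 0.05 there were 5 members, Adamtsl2, Mmp23, Loxl2, Timp1 and Loxl4, against 7.19% of all genes, and DESeq2 called no member and 0.118% of all genes. The interaction of Adamtsl2 was 1.39 on the log2 scale (SE 0.41; edgeR adjusted p = 0.653), that of Mmp23 1.03 (SE 0.39; edgeR adjusted p = 0.653) and that of Loxl2 0.75 (SE 0.30; edgeR adjusted p = 0.673). The median over the members was 0.49, with 36 of 45 positive, against 0.03 over all genes, and without the fat library of mouse 138 it was 0.21. Without that library and with the mouse as a replicate block, edgeR called 1 member, Lox, and 7 of 17489 genes. No other setting tried called a member in the interaction.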

How the data were processed

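Total RNA of red gastrocnemius muscle and visceral fat was sequenced after ribosomal depletion with stranded libraries, per the labels' protocols, with a stated average RIN of 8.3. The authors deposited raw counts per Ensembl gene, 1 column for each of 16 libraries, with no scaling; all 16 columns were matched by name. The build GRCm38 and the tools DESeq2 1.22.2, featureCounts 1.6.3 and STAR 2.7.0f are listed, per the submitters' processing notes; no label states the strand setting, the handling of multi-mapping reads or which annotation was counted. GENCODE M21 held all 55536 identifiers and gave symbols, classes and coordinates.

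From the counts, genotype was tested in each tissue, and tissue and the interaction over all 16 libraries, by edgeR 4.0.16 quasi-likelihood fits (R 4.3.3) with TMM scaling, filterByExpr and robust estimation; p-values were adjusted by Benjamini-Hochberg over all genes tested, with a threshold of 0.05. Each SE was taken as the size of the log2 fold change over the square root of its F statistic. Levels of members and of Myd88 are CPM with TMM factors, set within a tissue for genotype and over 16 libraries for tissue; marker levels are CPM of total counts; TPM was computed from union exon lengths. Exact two-sided permutation tests used log2(CPM + 0.5). DESeq2 1.42.0, limma 3.58.1 voom, other scalings and filters, a replicate block and leaving out each mouse were the alternatives. The fits were tested on simulated data. The members, lists and tests were chosen with earlier results of these data known. Named were the members with the smallest p in each genotype comparison (6) and in the interaction (3), the largest tissue differences among called members that averaged 1 CPM or more in either tissue, and the leaders of each role by TPM; other members named in the report were chosen after their values were seen. The mouse number pairs the tissues of an animal: deviations of paired libraries from their group means correlated at -0.03 to 0.04 in controls and 0.12 to 0.18 in knockouts across 14602 genes. No pair of libraries of a group agreed within sampling noise. The labels do not say how the mice were bred or housed together, so p-values measure the spread between these mice.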

Additional observations from a re-analysis of the deposited data

Results flagged for a closer look

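In groups of 4 libraries, a single library lay far from the other 3 for 13 of the 160 combinations of member and group examined, where chance alone gives about 1 in 20. Of these, 5 were the fat library of control mouse 138: Adamts17 at 7.68 CPM, against 0.803 to 1.24 CPM in the other 3, Adamts6 at 40.1 CPM, against 9.82 to 14.3 CPM, Adamtsl5 at 23.4 CPM, against 11.7 to 13.4 CPM, Mmp15 at 30.8 CPM, against 16 to 17.0 CPM, and Mmp17 at 21.2 CPM, against 3.06 to 3.15 CPM. Control mouse 11 stood above the other control fat libraries for Mmp11, at 16.3 CPM against 7.24 to 8.71 CPM, and for Mmp3, at 10.4 CPM against 5.503 to 6.24 CPM. In knockout fat, mouse 960 lay below the others for Adamts2, at 94.8 CPM against 125 to 127 CPM, and for Adamts4, at 3.005 CPM against 4.11 to 4.32 CPM, and mouse 139 lay below them for Mmp27, at 0.638 CPM against 1.65 to 1.83 CPM. In muscle, knockout mouse 139 lay above the others for Timp4, at 41.2 CPM against 26.6 to 26.9 CPM, and for Mmp23, at 1.18 CPM against 1.03 to 1.06 CPM. The Mmp23 values rest on few counts, as given above, and this gap is within counting error. It was flagged because the other 3 values lay close together. Control mouse 137 lay above the other controls in muscle for Adamts8, at 4.72 CPM against 2.22 to 2.58 CPM.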

How the results depend on the processing

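Of the fold changes recomputed for named members, 1001 kept their direction and their side of the threshold under the alternatives, 15 newly passed it, 10 no longer passed it and 23 reversed. Between the tissues, total counts with no scaling factors reversed Adamtsl4 at -0.40, Mmp15 at -0.67 and Adamts1 at -0.97 among these named members. It newly called Mmp2, Timp1 and Timp4 lower in muscle. Members outside these counts were also newly called lower, namely Adamts3 at -1.30, Adamts6 at -1.585, Mmp16 at -1.90, Adamtsl2 at -1.18 and Adamtsl3 at -1.08. Adamtsl2 and Adamtsl3 had been positive under TMM. Total counts left 1 member higher in muscle. The members' median was then -2.67 between the tissues and 0.60 in the interaction, as the construction of the scaling shifts all genes. Without a filter on low counts the tissue median was -1.59, and without the fat library of mouse 138 it was -1.36; that library's absence also gave an interaction median of 0.21. In fat DESeq2 called 1 member, and without mouse 138 it called 2, no filter gave 1, and the cause was not tested. Leaving out each mouse in turn gave 0 members called in muscle and in fat, 0 to 1 in fat without mouse 138, medians of 0.044 to 0.15 in muscle, -0.33 to -0.046 in fat, where the value nearest 0 is that without mouse 138, -0.12 to -0.026 in fat without mouse 138, -1.53 to -1.38 between the tissues and 0.24 to 0.59 in the interaction. With the mouse as replicate block the interaction median was 0.36, and without the fat library of mouse 138 as well it was 0.24, with 1 member called; the block changed no other count of members by over 1.5 times, giving 6 higher and 31 lower in muscle and no genotype call. Total counts put the median in fat without mouse 138 at 0.0026, on the other side of 0. Over all genes, edgeR called 2 in muscle (80 with no filter, 10 by DESeq2), 1 in fat (72 by DESeq2, 6 in 1 fit of both tissues, 8 by limma voom with the block, 0 by limma voom without it) and 6 in fat without mouse 138 (161 with no filter, 348 by DESeq2, 65 in 1 fit of both tissues); in the interaction it called 0, DESeq2 11, and edgeR 3 without the fat library of mouse 138 and 7 with the block as well. Depth limits Mmp23 in muscle and Timp1 in fat, which rest on fewer than 50 counts in each library. The other reversals were of values that were not called in either setting. Leaving out each mouse in fat gave -0.73 to 0.0050 for Mmp2 and -1.41 to 0.15 for Mmp17, whose highest values are those without mouse 138, and -0.28 to 0.13 for Mmp28, which was at 0.11 by limma voom with and without the block. With mouse 138 already out, total counts put Loxl3 at 0.017 and Timp2 at 0.0090, and limma voom put Mmp2 at -0.012. Leaving out a further mouse there gave -0.10 to 0.19 for Mmp2, -0.16 to 0.054 for Loxl3, -0.17 to 0.14 for Timp2 and -0.012 to 0.35 for Mmp17.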
